A study of Mus musculus with 12 samples.

Results

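The MYC, MAX and MXD family was followed here as 10 genes, namely Myc, Mycn, Mycl1, Max, Mga, Mnt, Mxd1, Mxd3, Mxd4 and Mxi1. They were chosen by family membership, but with earlier results of these data known. All 10 were found among the 26061 genes of the deposited table. The samples are mouse embryonic stem cells (ESCs) that lack endogenous TET2 (Tet2 KO, with exon 14 of the gene replaced and then excised) and stably carry, through a PiggyBac transposon, either WT TET2 or a catalytic mutant of it (H1304Y, D1306A). Every library, in both rescue lines, came from cells infected with a lentiviral shRNA against Setdb1 (shSetdb1), so no group here has intact SETDB1 levels by design and the response to the depletion is not measured. Each line was grown without feeders in 2i medium (LIF with the MEK inhibitor PD0325901 and the GSK3 inhibitor CHIR99021, termed naïve ESCs) or in serum with LIF (primed ESCs), and 3 libraries of poly(A) RNA were sequenced for each of the 4 groups. The labels do not say whether the 3 libraries are separate cultures, nor whether a rescue line is a clone or a pool, so p-values measure the spread between these libraries, which may be technical, and a difference between rescue lines cannot be told apart from a difference between 2 individual lines. Only transcripts were measured, and not the MYC or MAX proteins.

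MYC, MYCN and MYCL are transcription factors of the basic helix-loop-helix leucine zipper class. They bind DNA only as heterodimers with MAX, at the E-box CACGTG and its variants, and mostly raise transcription of genes for growth, ribosome assembly and metabolism. MXD1, MXI1, MXD3 and MXD4, and the larger MNT, compete for MAX and for the same sites and bring in SIN3 and histone deacetylases, whereas MGA pairs with MAX inside the Polycomb complex PRC1.6, which silences germline genes in ESCs. In ESCs the MYC proteins act downstream of LIF and support proliferation and self-renewal. GSK3 phosphorylates MYC and thereby marks it for the ubiquitin ligase subunit FBXW7, so protein and transcript levels need not follow each other.

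The promoters of 9 of the 10 members were matched in the RefSeq promoter table (GRCm38.p6; 250 bases before to 50 bases after each start), Mycl1 under its RefSeq symbol Mycl and Mxi1 with 3 windows, and Myc was not among them. The E-box CACGTG, which is its own reverse complement, was found in Max, Mnt and Mxd4, and in 7.15% of the 32851 promoters of the table. TTTGGCGC and TTTCGCGC, forms of the site bound by E2F factors, were searched on both strands. Both were found in Mycn, and they were present in 0.514% and 0.323% of all promoters. These 4 stretches of 100 bases are shown because they carry the motif through which the family binds or, in Mycn, a known class of cell cycle site. Capitals mark the matches, and each is written 5′ to 3′ on the strand of the gene:
Max: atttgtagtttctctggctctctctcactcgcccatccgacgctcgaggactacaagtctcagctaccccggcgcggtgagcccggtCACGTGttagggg
Mnt: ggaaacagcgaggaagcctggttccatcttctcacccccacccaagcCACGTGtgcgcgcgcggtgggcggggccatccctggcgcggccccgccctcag
Mxd4: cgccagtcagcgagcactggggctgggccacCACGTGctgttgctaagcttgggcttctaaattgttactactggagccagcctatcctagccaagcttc
Mycn: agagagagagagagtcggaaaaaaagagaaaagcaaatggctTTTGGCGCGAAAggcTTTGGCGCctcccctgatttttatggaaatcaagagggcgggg
The stretch of Max lies at chr12:76962239-76962338 (minus strand) and its E-box starts 3 bases before the annotated start. The stretch of Mnt is chr11:74830754-74830853 (plus strand), with the E-box 123 bases upstream, and that of Mxd4 is chr5:34187861-34187960 (minus strand), with the E-box 219 bases upstream. In Mycn (chr12:12941962-12942061, minus strand) TTTGGCGC starts 183 and 168 bases upstream, and the first of these overlaps TTTCGCGC on the opposite strand, whose match starts 179 bases upstream. A match is a description of the letters and not evidence of binding. Of the genes shown, Max and Mycn were lower in naïve ESCs in both rescue lines, Mxd4 in the WT line only by the test used, and Mnt in neither, as given below gene by gene.

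The libraries held 8066662 to 21335933 reads assigned to genes. All 7 pluripotency markers listed (Pou5f1, Sox2, Nanog, Zfp42, Esrrb, Sall4 and Utf1) were read in every library, with sums of 3342 to 4328 RPM (reads per 1000000 gene reads). A list of 5 genes of primed cells summed to 58.6 to 212 RPM in naïve and 587 to 1087 in primed libraries, while the 5 tabulated genes of a list of naïve cells summed to 508 to 667 and 403 to 659 RPM, which overlap. On the primed list Dnmt3b, Dnmt3l, Otx2 and Fgf5 had the higher means in primed ESCs of both lines, Fgf5 with at most 19 reads. Lefty1 went the other way, with log2 means of 7.99 and 7.60 in naïve against 6.24 and 6.59 in primed ESCs (WT and mutant TET2). Of 6 fibroblast markers, 4 were at 0 in every group (Col1a2, Col3a1, S100a4 and Dcn), and the list summed to 2.58 to 7.47 RPM in naïve and 1.17 to 1.64 in primed libraries, mostly through Thy1. The neural genes Pax6 and Nes summed to 52.6 to 88.5 RPM in naïve and 63.2 to 95.7 in primed libraries. Genes of primitive streak and mesoderm had 2.87 to 3.66 and 9.07 to 14.7 RPM, mostly through Eomes. Primitive endoderm genes had 1.58 to 6.045 and 3.95 to 5.455 RPM, and trophoblast genes 0.567 to 3.22 and 1.17 to 3.575 RPM. The part of all such cells in the results was not tested. The targeted gene Setdb1 had 114 to 585 reads and did not differ between the rescue lines beyond the replicate spread (limma, adjusted p = 0.857 in naïve and 0.788 in primed ESCs), nor was it called between media (-0.45 and -0.42, naïve minus primed, adjusted p = 0.167 and 0.201). Tet2 transcripts, which include those of the construct, were higher in the WT line by 2.16 in naïve and 1.84 in primed ESCs on the log2 scale (limma, adjusted p = 0.0154 and 0.0297). They were also lower in naïve than in primed ESCs in both lines (log2 differences -1.55 with WT and -1.87 with mutant TET2, limma, adjusted p = 0.00207 and 0.000515), and their part in the media comparison was not tested. The 14 Y-linked genes tested were all higher in the WT line in both media, by a median of 1.35 and 1.48 (log2). Of them 8 were called in naïve and 9 in primed ESCs, beside 14 and 36 genes called in all.

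To order the members by abundance, reads were divided by the length of all annotated exons of the gene and by the gene reads of the library (RPKM). Mycn was the most abundant member in all 4 groups, at 43.0 ± 1.9 and 36.2 ± 6.7 RPKM in naïve ESCs with WT and mutant TET2 and 62.4 ± 2.0 and 59.5 ± 13.7 RPKM in primed ESCs (SD, n = 3 each). Max, the obligate partner, was second, at 26.0 ± 7.0 and 19.3 ± 4.5 RPKM in naïve and 49.0 ± 2.2 and 42.1 ± 5.1 RPKM in primed ESCs (SD, n = 3 each). Mga came next, with means from 12.5 to 18.1 RPKM, and its libraries overlapped those of Max in naïve WT cells only. Mnt and Mxd3 followed, at means of 7.27 to 10.4 and 8.75 to 11.2 RPKM, and their order changed between the rescue lines, with overlapping libraries in 3 of the 4 groups. That change depends on the length used. With the longest annotated transcript in place of all exons, the mean of Mxd3 lay above that of Mnt in all 4 groups. The places of Mycn, Max and Mga stayed the same. Mxi1 had 4.98 to 5.87 RPKM, the MYC paralog Mycl1 3.20 to 3.53 RPKM, and Mxd4 and Mxd1 lay below these, at 0.896 to 1.55 and 0.377 to 1.33 RPKM. Mxd4 and Mxd1 overlapped in 3 of the 4 groups.

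**Figure D1:**
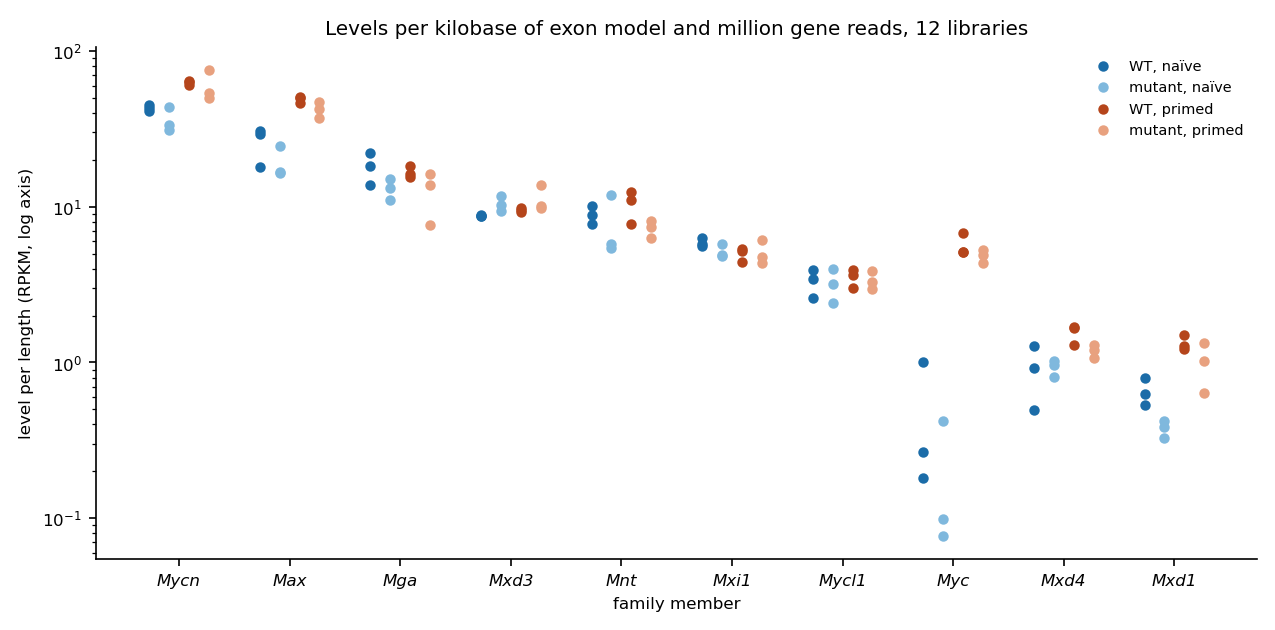
Levels of the 10 members per exon length and library size (RPKM, log axis), 1 point per library, coloured by group (3 libraries each), with genes ordered by mean. Mycn and Max lead in all 4 groups, and Myc is the gene whose place in the order moves most between media, from 0.0771 to 1.01 RPKM in naïve to 4.33 to 6.75 RPKM in primed libraries.

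Myc itself had the largest shift in this order. In naïve ESCs it was the lowest of the 10 by mean, at 0.487 ± 0.456 RPKM with WT and 0.198 ± 0.192 RPKM with mutant TET2 (SD, n = 3 each), although its libraries overlapped those of Mxd1 in both lines. In primed ESCs it reached 5.67 ± 0.93 and 4.83 ± 0.48 RPKM (SD, n = 3 each), a level whose libraries overlapped those of Mxi1. As a share of the summed RPKM of the MYC paralogs, Myc made up 1.03% ± 0.95 and 0.456% ± 0.359 in naïve and 7.90% ± 1.01 and 7.30% ± 1.35 in primed ESCs, with WT and mutant TET2 respectively (SD, n = 3 each). Mycn made up 91.9% ± 1.5 and 91.5% ± 1.0 in naïve and 87.2% ± 1.3 and 87.6% ± 2.3 in primed ESCs. The paralogs therefore summed to 46.8 and 39.6 RPKM in naïve and 71.6 and 67.7 RPKM in primed ESCs, mostly as Mycn. The sum of the MXD genes was 16.2 and 16.9 RPKM in naïve and 17.4 and 18.5 RPKM in primed ESCs, so that the ratio of MYC paralog to MXD transcripts was 2.90 ± 0.25 and 2.35 ± 0.45 in naïve against 4.12 ± 0.21 and 3.70 ± 0.96 in primed ESCs (SD, n = 3 each). Mnt, whose protein also competes for MAX, had means of 7.27 to 10.4 RPKM and is not part of the MXD sum. The ratio is therefore not one of MYC paralogs to all antagonists. These sums, shares and ratios are descriptions and were not tested.

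**Figure D2:**
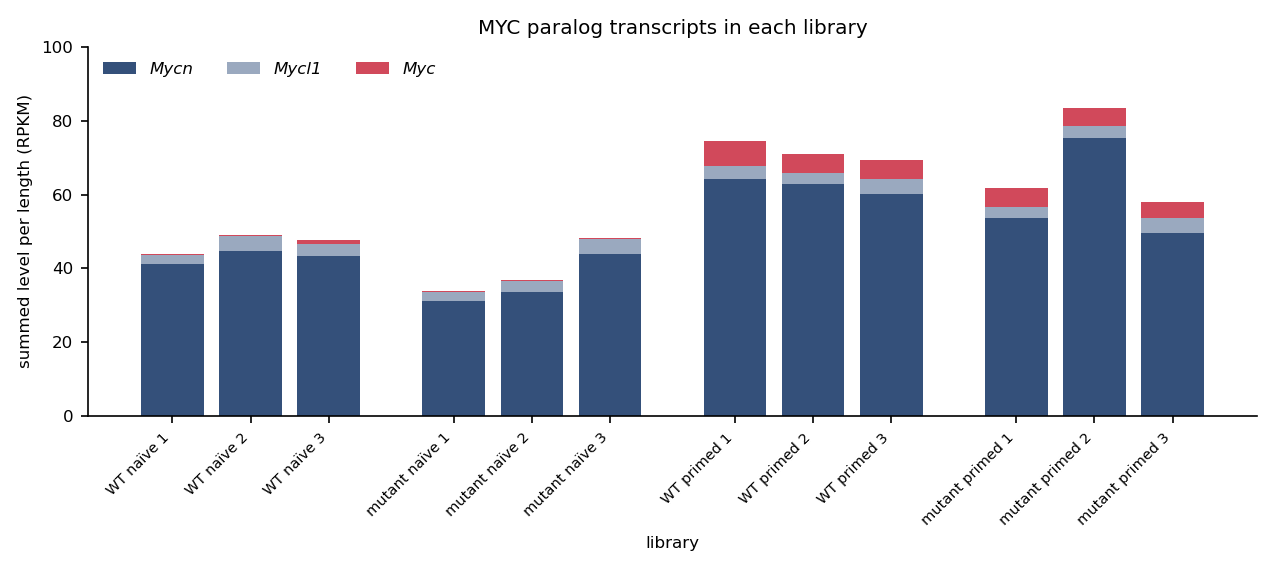
Summed levels of Mycn, Mycl1 and Myc in each of the 12 libraries (RPKM, stacked bars from 0), grouped by rescue line and medium. Mycn fills most of every bar, the sums run from 33.7 to 49.0 RPKM in naïve and from 57.9 to 83.3 RPKM in primed libraries, and the Myc segment is barely visible in naïve libraries.

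The main comparison was between media within each rescue line, made over 14185 genes by fitting limma to the log2 values as deposited. It was a broad one, with 35.9% of the genes called at an adjusted p under 0.05 in the WT line (18.6% higher and 17.3% lower in naïve ESCs) and 35.2% in the mutant line (18.3% higher and 16.9% lower). All 10 members were tested. In the WT line 5 members were lower in naïve ESCs (Myc, Mycn, Max, Mxd1 and Mxd4) and 0 were higher, and in the mutant line 4 were lower (Myc, Mycn, Max and Mxd1) and 0 were higher, where the same counts were reached at an unadjusted p under 0.05. The 4 genes lower in both lines compare with 12.4% of all genes tested (1756) that were lower in both. Because the members were chosen with earlier results of these data known, these counts describe the family and do not test it. The median difference of the members was -0.31 in the WT and -0.17 in the mutant line, against 0.01 and -0.01 over all genes. Mycl1, Mga, Mnt, Mxd3 and Mxi1 were not called in either line. In bulk RNA, fewer cells that express a gene and less RNA per cell cannot be told apart.

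**Figure D3:**
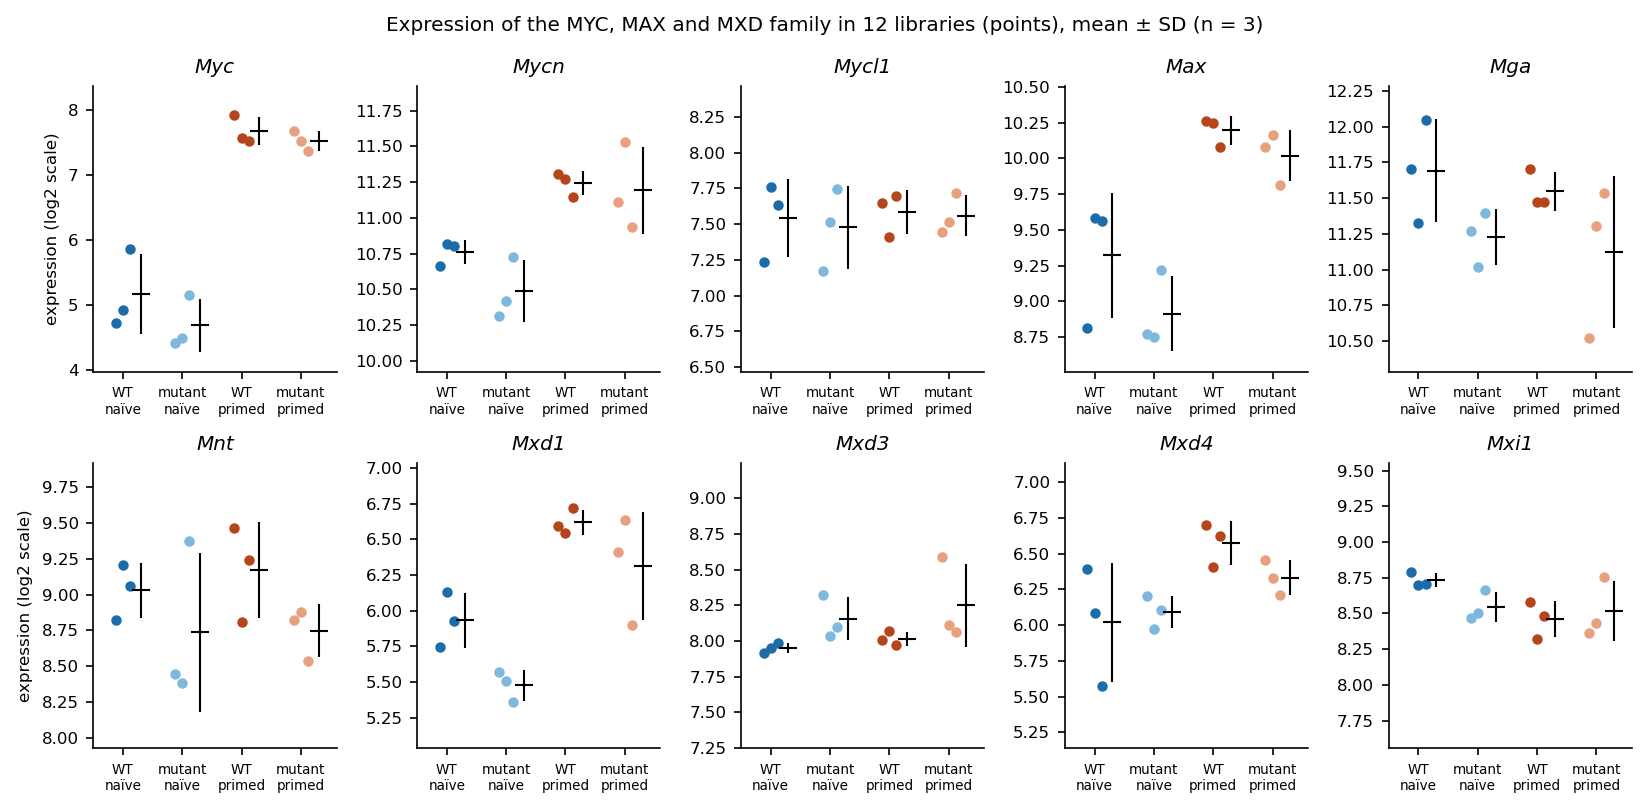
Deposited expression of each member (log2 scale, 1 panel per gene, axes of different range but at least 2 units tall), with 1 point per library and the mean ± SD of the 3 libraries of a group beside them. Naïve and primed libraries separate for Myc, Mycn, Max and Mxd1 except for 1 primed Mxd1 library of the mutant line at 5.90, which lies below the highest naïve WT library at 6.13 but above the naïve libraries of its own line.

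Among the MYC paralogs, Myc (chr15:61816946-61821929, plus strand, mm9, as for the loci that follow) had the largest difference. In the WT line its expression on the log2 scale was 4.72, 4.92 and 5.88 in the naïve libraries (replicates 1, 2 and 3) and 7.94, 7.58 and 7.53 in the primed libraries. In the mutant line it was 4.42, 4.50 and 5.16 in naïve and 7.68, 7.53 and 7.37 in primed libraries. Every naïve library lay below every primed one, and replicate 3 was the highest naïve library in both lines. The log2 difference (naïve minus primed) was -2.51 in the WT line (standard error 0.27, 95% confidence interval -3.09 to -1.93, limma, adjusted p = 4.01e-06) and -2.83 in the mutant line (standard error 0.27, interval -3.41 to -2.26, limma, adjusted p = 1.25e-06). The naïve values rest on few reads, 5, 9 and 33 with WT and 3, 3 and 23 with mutant TET2, against 129 to 299 in primed libraries. A count of 3 reads has an exact Poisson interval of 0.619 to 8.77 reads and one of 33 reads an interval of 22.7 to 46.3, counting error only. The deposited scale compresses differences at such counts. In RPKM the primed mean was 11.6 times the naïve mean in the WT line and 24.4 times in the mutant line. Naïve replicate 3 raises both naïve means, and without it, an alternative chosen after seeing the data, the ratios were 25.2 and 55.0. On the recovered reads limma-voom gave log2 differences of -3.77 and -4.75 (adjusted p = 2.78e-05 and 1.40e-05). Over all alternatives the adjusted p of Myc was 5.14e-07 to 5.19e-05 in the WT and 1.47e-07 to 2.18e-05 in the mutant line.

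Mycn (chr12:12942902-12948720, minus strand), the most abundant paralog in these cells, was lower in naïve ESCs by a smaller margin. In the WT line it was 10.66, 10.82 and 10.81 in naïve and 11.31, 11.27 and 11.15 in primed libraries (log2 scale). In the mutant line the values were 10.31, 10.42 and 10.73 in naïve and 11.11, 11.53 and 10.94 in primed libraries. The media did not overlap in either line, although the mutant groups were more spread. The difference was -0.71 in the mutant line (standard error 0.17, interval -1.06 to -0.35, limma, adjusted p = 0.00387). In the WT line it was -0.48 (standard error 0.17, interval -0.83 to -0.13, limma, adjusted p = 0.0338), and that call was lost in each of the 6 fits that left out 1 library of the WT line, with differences of -0.53 to -0.43 over all fits that left out a library and an adjusted p of 0.0145 to 0.112 over all alternatives. Mycl1 (chr4:122672895-122679728, plus strand), the paralog first found in small cell lung cancer, ranged from 7.17 to 7.76 in naïve and from 7.41 to 7.72 in primed libraries. Its differences of -0.04 in the WT and -0.08 in the mutant line were smaller than the replicate spread (limma, adjusted p = 0.886 and 0.782), with intervals of -0.46 to 0.37 and -0.50 to 0.33.

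Max (chr12:78038256-78063235, minus strand), without which none of the MYC, MXD, MNT or MGA proteins forms its usual DNA-binding dimer, was lower in naïve ESCs in both lines. It was 8.82, 9.58 and 9.56 in naïve and 10.26, 10.25 and 10.08 in primed libraries of the WT line (log2 scale). In the mutant line it was 8.77, 8.75 and 9.22 in naïve and 10.08, 10.16 and 9.82 in primed libraries. No naïve library reached the lowest primed one, and naïve replicate 1 of the WT line was the lowest of its group. The difference was -0.88 in the WT line (standard error 0.20, interval -1.30 to -0.45, limma, adjusted p = 0.00323) and -1.11 in the mutant line (standard error 0.20, interval -1.53 to -0.68, limma, adjusted p = 0.000594). Without naïve replicate 1 the difference in the WT line was -0.62 and was still called. In RPKM the naïve mean was 52.9% of the primed mean with WT and 45.8% with mutant TET2.

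The large MAX partners were not called. Mga (chr2:119722964-119795317, plus strand), a protein of PRC1.6 with a T-box domain as well as its helix-loop-helix, ranged from 11.02 to 12.05 in naïve and from 10.52 to 11.71 in primed libraries (log2 scale). Its differences were 0.14 in the WT and 0.11 in the mutant line (limma, adjusted p = 0.660 and 0.754; intervals -0.34 to 0.63 and -0.38 to 0.59). Mnt (chr11:74644422-74659227, plus strand), the MYC antagonist expressed in both cycling and resting cells, ranged from 8.38 to 9.38 in naïve and from 8.53 to 9.47 in primed libraries, with differences of -0.14 and -0.01 (limma, adjusted p = 0.678 and 0.977; intervals -0.65 to 0.37 and -0.52 to 0.50). For both genes the naïve and primed libraries overlapped in each line, and these intervals do not reach the size of the difference of Max in either line.

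Of the MXD genes, Mxd1 (chr6:86597038-86619153, minus strand), an antagonist of MYC induced as many cells differentiate, was lower in naïve ESCs. In the WT line it was 5.74, 6.13 and 5.93 in naïve and 6.59, 6.55 and 6.72 in primed libraries (log2 scale). In the mutant line it was 5.57, 5.51 and 5.36 in naïve and 6.41, 6.63 and 5.90 in primed libraries. Within each line the media did not overlap. The difference was -0.84 in the mutant line (standard error 0.20, interval -1.26 to -0.41, limma, adjusted p = 0.00453) and -0.68 in the WT line (standard error 0.20, interval -1.11 to -0.26, limma, adjusted p = 0.0146). The WT call was lost without naïve replicate 1 (limma, adjusted p = 0.0527) or primed replicate 3 (limma, adjusted p = 0.0581) of that line, and the adjusted p was 0.00602 to 0.0581 over all alternatives. Mxd1 was a low transcript, with 20 to 46 reads in naïve and 33 to 149 in primed libraries.

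Mxd4 (chr5:34516536-34530369, minus strand), a further antagonist linked to exit from the cell cycle, was called in the WT line alone. It was 6.39, 6.09 and 5.57 in naïve and 6.70, 6.41 and 6.62 in primed libraries of that line, a difference of -0.56 (standard error 0.21, interval -0.996 to -0.122, limma, adjusted p = 0.0442). In the mutant line it was 6.20, 5.98 and 6.10 in naïve and 6.46, 6.33 and 6.21 in primed libraries, a difference of -0.24 (interval -0.68 to 0.20, limma, adjusted p = 0.392). The media did not overlap in either line, and naïve replicate 3 of the WT line, with 23 reads, was the lowest library. Without it the WT difference was -0.34 and was not called (limma, adjusted p = 0.204, the highest of a range from 0.0125 over all alternatives). The call was lost in 10 of 20 alternatives in all, among them no filter, only the libraries compared and the replicate block (adjusted p = 0.0659, 0.0726 and 0.0539). The test of whether the 2 lines differed in this respect gave a difference of -0.32 (limma, adjusted p = 0.976), so the lines were not shown to differ.

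The remaining MXD genes did not pass the test. Mxd3 (chr13:55426529-55431119, minus strand), the MXD gene known to be expressed in the S phase of proliferating cells, ranged from 7.91 to 8.33 in naïve and from 7.97 to 8.59 in primed libraries, with differences of -0.07 and -0.10 (limma, adjusted p = 0.795 and 0.699). Mxi1 (chr19:53384996-53450300, plus strand), a further MXD gene, was 8.79, 8.70 and 8.71 in naïve and 8.58, 8.32 and 8.48 in primed libraries of the WT line, without overlap between the media, a difference of 0.27 (interval -0.06 to 0.60, limma, adjusted p = 0.192). In the mutant line its difference was 0.03 (limma, adjusted p = 0.908). The libraries do not keep strand, and Mxd3 shares 104 exon bases (5.0% of its exons) with Prelid1 on the opposite strand and Mxi1 194 bases (3.45%) with Gm10197, so reads there cannot be assigned to one gene.

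**Figure D4:**
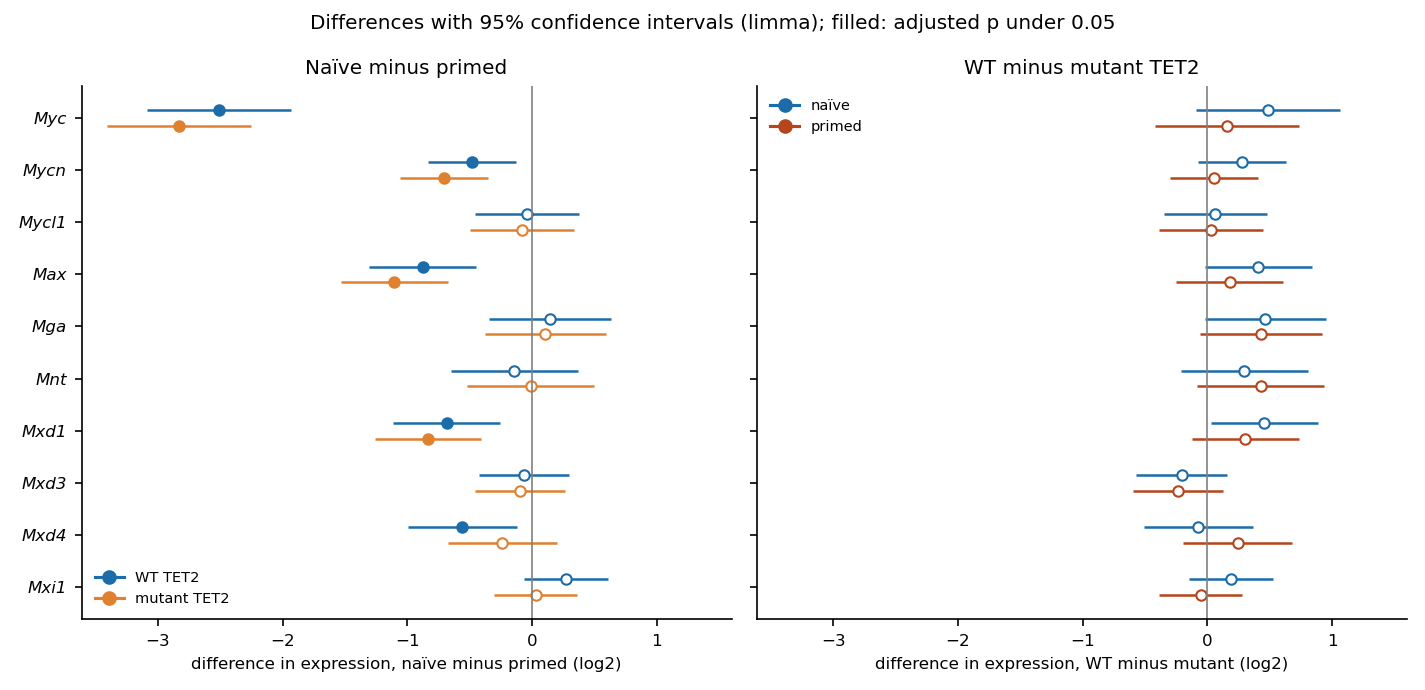
Log2 differences of the 10 members with 95% confidence intervals from limma, naïve minus primed on the left (WT and mutant TET2 lines) and WT minus mutant TET2 on the right (naïve and primed ESCs), filled where the adjusted p was under 0.05. On the left Myc lies at -2.51 and -2.83, well apart from the other members, and on the right no point is filled.

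The second comparison was between the rescue lines with WT and with catalytic mutant TET2, in SETDB1-depleted cells. The lines also differed in Tet2 transcripts and in Y-linked genes, as given above. By Western blot the paper reports similar TET2 protein levels in both. The part of each in the differences was not tested. Of the genes called between the lines, 8 in naïve and 9 in primed ESCs were Y-linked. In naïve ESCs 0 of 10 members were called (limma, smallest adjusted p = 0.351, with 1 at an unadjusted p under 0.05), beside 0.0987% of all genes (14) called and 13.3% with an unadjusted p under 0.05. In primed ESCs 0 of 10 were called (limma, smallest adjusted p = 0.370, with 0 at an unadjusted p under 0.05), beside 0.254% of all genes (36) called and 16.2% with an unadjusted p under 0.05. With the replicate number as a block in naïve ESCs, where it pairs the libraries, 36 genes were called in place of 14 and still 0 members (limma, smallest adjusted p = 0.149, for Myc, whose range was 0.149 to 0.921 over all alternatives). In that fit 4 of 10 members had an unadjusted p under 0.05, beside 2797 of all 14185 genes. The mean was higher with WT TET2 for 8 of 10 members in each medium, with median differences of 0.29 in naïve and 0.17 in primed ESCs against 0.00 and 0.01 over all genes.

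The member nearest to the threshold in naïve ESCs was Mxd1, whose 3 WT libraries (5.74 to 6.13) lay above the 3 mutant libraries (5.36 to 5.57), by 0.46 (interval 0.03 to 0.88, limma, adjusted p = 0.351). Myc had a difference of 0.48 in naïve ESCs (interval -0.09 to 1.06, limma, adjusted p = 0.445). Within same-numbered pairs it was higher with WT TET2 by 0.31, 0.42 and 0.72, and with the block the interval was 0.12 to 0.85. Mycn, Max, Mga, Mxd1 and Mxi1 also had the higher value with WT TET2 in 3 of 3 naïve pairs, and Mxd3 the lower value in 3 of 3. The share of all genes with the same sign in 3 of 3 pairs was not determined, so these signs have no background and describe single genes only. Max and Mga differed by 0.41 and 0.46 in naïve ESCs (limma, adjusted p = 0.391 each). Mxd3 was the one member with a negative difference in both media, -0.21 in naïve and -0.24 in primed ESCs (limma, adjusted p = 0.607 and 0.512), and its naïve libraries did not overlap between the lines. In primed ESCs the largest differences were those of Mga and Mnt, at 0.43 each (limma, adjusted p = 0.370 and 0.392). That of Mga was 0.13 without primed replicate 1 of the mutant line, its lowest library at 10.52, and that of Mnt was 0.28 without primed replicate 1 of the WT line. None of these passed the test, and the intervals leave room for differences of up to 1.06 in naïve ESCs (Myc) and 0.93 in primed ESCs (Mnt).

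Whether the effect of the rescue differed between media, or equally whether the media difference varied between rescue lines, was tested as an interaction. It was called for 0 of 10 members (limma, smallest adjusted p = 0.976, 0 at an unadjusted p under 0.05) and for 0.0% of all genes, with 3.45% of genes (489) at an unadjusted p under 0.05. The largest differences were 0.32 for Myc (interval -0.49 to 1.14) and -0.32 for Mxd4 (interval -0.94 to 0.30). Both rest on naïve replicate 3 of the WT line, without which they were -0.026 and -0.0968.

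Genes that work with the family were counted on lists that were chosen with earlier results of these data known, so the counts describe and do not test the lists. The list of the MLX branch, a parallel network in which MLX replaces MAX, held Mlx, Mlxip and Mlxipl among its tested genes. It also held Usf1 and Usf2, which are not part of that network. On this list 2 of 5 tested genes were called in the WT line and 1 of 5 in the mutant line, beside 35.9% and 35.2% of all genes. Mlxipl (ChREBP, a carbohydrate-responsive factor) was higher in naïve ESCs by 1.34 in the mutant line (limma, adjusted p = 0.000697) and by 0.72 in the WT line (adjusted p = 0.0343), a WT call that was lost in 7 of 20 alternatives. Mlxip (MondoA) was lower in the WT line (log2 difference -0.77, limma, adjusted p = 0.0205; up to 0.0964 with 1 library left out). The MXD corepressors, SIN3 with its deacetylases and accessory subunits, had 0 of 10 genes called in the WT line (limma, 2 at an unadjusted p under 0.05), and 3 of 10 in the mutant line, against the same shares of all genes. There Sin3b was higher by 0.58 (limma, adjusted p = 0.0186), and Sap30 and Hdac1 were lower (log2 differences -0.64 and -0.46, adjusted p = 0.0100 and 0.0324). Each of these calls was lost in at least 1 fit that left out a library, that of Sap30 only without naïve replicate 1 of the mutant line (difference -0.54, adjusted p = 0.0556).

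Of the cofactors of MYC 23.1% were called in the WT and 15.4% in the mutant line, and of the genes that control its turnover 25% and 33.3%, beside 35.9% and 35.2% of all genes. Of the 13 listed cofactors 1 was higher and 2 were lower in the WT line, and 1 was higher and 1 lower in the mutant line. The list held mostly coactivators, but also Zbtb17, the gene of MIZ1, through which MYC represses genes. Zbtb17 was not called. Wdr5, a chromatin adaptor that MYC contacts, was higher in naïve ESCs by 0.82 and 0.74 in the WT and mutant lines (limma, adjusted p = 0.00291 and 0.00626). The acetyltransferase Kat2a was lower (log2 differences -0.58 and -0.44, adjusted p = 0.00840 and 0.0396) and the ATPase Ruvbl2 by -0.41 in the WT line (adjusted p = 0.0445), of which the Kat2a call in the mutant line and the Ruvbl2 call were lost in 10 and 12 of 20 alternatives. Of 12 tested turnover genes 1 was higher and 2 were lower in the WT line, and 1 was higher and 3 were lower in the mutant line. Usp28, a deubiquitinase that opposes FBXW7, was higher by 0.89 and 0.71 (limma, adjusted p = 0.000960 and 0.00483), and Fbxw7, whose protein marks phosphorylated MYC for destruction, was lower (log2 differences -0.43 and -0.46, adjusted p = 0.0288 and 0.0207; up to 0.124 and 0.0657 in the alternatives). Skp2, another F-box protein that ubiquitinates MYC, was lower in the mutant line (log2 difference -1.11, adjusted p = 0.000824), with a value of -0.54 in the WT line (adjusted p = 0.0554). Trim32 in the WT line (-0.49, adjusted p = 0.0479) and Stub1 in the mutant line (-0.55, adjusted p = 0.0330), both ubiquitin ligases, were called but lost in 10 and 7 of 20 alternatives. Fbxo32 was too low to be tested.

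Of 9 PRC1.6 genes 2 were higher and 2 lower in naïve ESCs of the WT line, and 1 was higher and 3 lower in the mutant line (44.4% in each, beside 35.9% and 35.2% of all genes, so not far from the background). Mga itself, which works in this complex, was not called. L3mbtl2, a chromatin-binding subunit, was 10.35 ± 0.12 in naïve and 11.28 ± 0.14 in primed ESCs with WT TET2 and 10.10 ± 0.29 and 11.05 ± 0.27 with mutant TET2 (SD, n = 3 each), lower (log2 differences -0.93 and -0.95, limma, adjusted p = 0.000696 and 0.000651). The related subunits Rybp and Yaf2 moved oppositely, Rybp lower with a difference of -0.74 in both lines (limma, adjusted p = 0.00756 and 0.00730) and Yaf2 higher by 0.94 and 0.79 (adjusted p = 0.00176 and 0.00588). Rnf2, the catalytic ubiquitin ligase, was higher by 0.68 in the WT line (adjusted p = 0.0187) and E2f6, the E2F factor of the complex, was lower in the mutant line (log2 difference -0.51, adjusted p = 0.0132), and both calls were lost in some fits that left out a library (adjusted p up to 0.0788 and 0.0633).

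Of 11 tested germline genes known as targets of repression by MGA and PRC1.6, 5 were higher and 1 was lower in naïve ESCs of the WT line (54.5%), and 3 were higher and 2 lower in the mutant line (45.5%). The shares over all genes were 35.9% and 35.2%. Dazl, an RNA-binding protein of germ cells, was 13.60 ± 0.34 in naïve and 10.63 ± 0.20 in primed ESCs with WT TET2 and 12.84 ± 0.60 and 10.61 ± 0.96 with mutant TET2 (SD, n = 3 each), higher by 2.96 and 2.23 (limma, adjusted p = 1.38e-05 and 0.000227). The meiotic cohesin subunits Stag3 and Smc1b were higher by 1.70 and 1.70 in the WT and by 1.88 and 2.13 in the mutant line (limma, adjusted p = 4.87e-06 and 0.00499, and 1.88e-06 and 0.00105). Sycp3, of the synaptonemal complex, was higher by 1.21 in the WT line (adjusted p = 0.00418), with a value of 0.75 in the mutant line (adjusted p = 0.0536). In the other direction, the helicase gene Ddx4 was lower in the mutant line (log2 difference -0.82, adjusted p = 0.0218; up to 0.102 with 1 library left out). Stk31 (0.87 in the WT line, adjusted p = 0.00364) and Taf7l (-0.83 and -0.74, adjusted p = 0.00897 and 0.0176) complete the counts and are named because their values were seen; the Taf7l call in the WT line was lost without naïve replicate 2 (difference -0.61, adjusted p = 0.0569), and in the mutant line without naïve replicate 2, naïve replicate 3 or primed replicate 1 (adjusted p up to 0.0733).

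**Figure D5:**
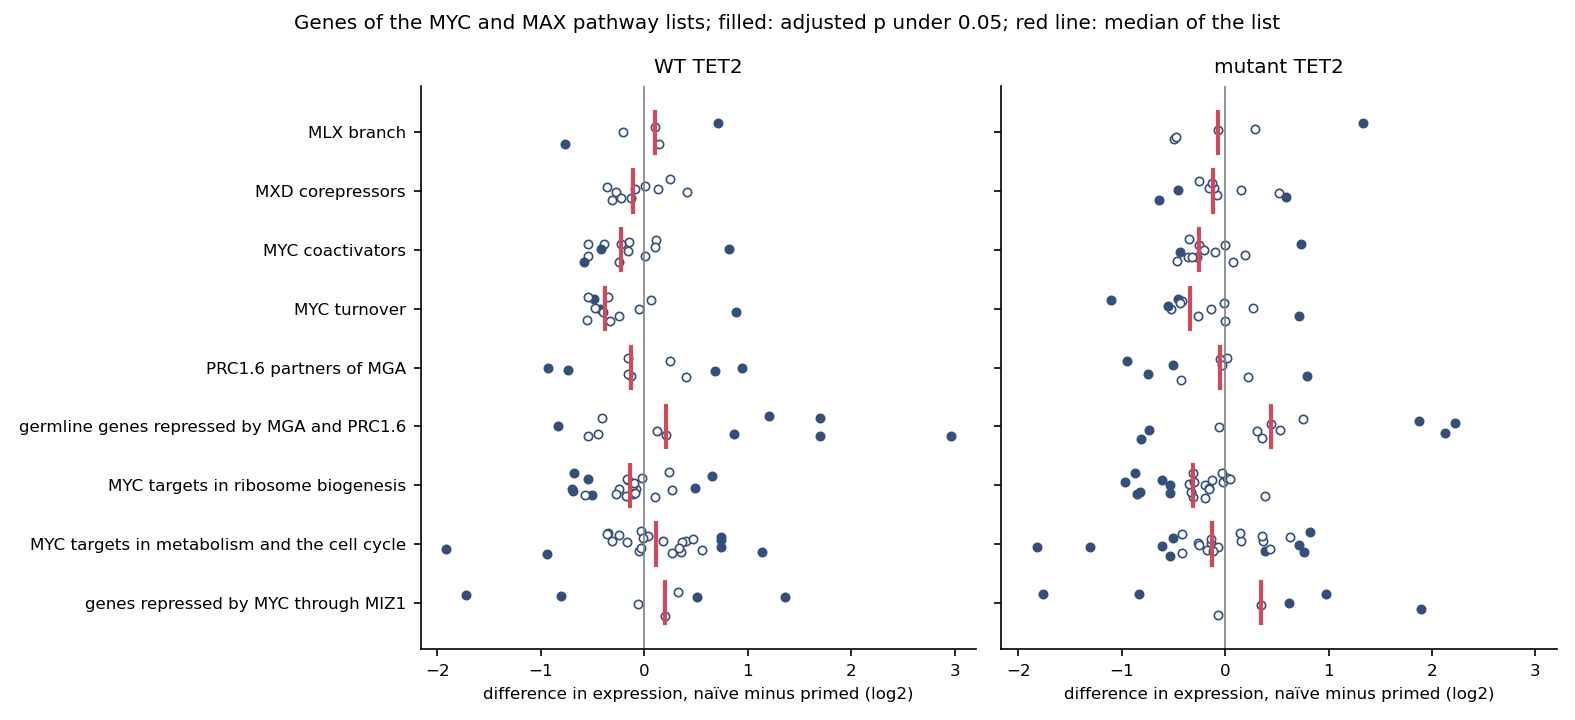
Log2 differences (naïve minus primed, horizontal axis) of the genes of 9 lists around the family, 1 point per gene, WT TET2 line on the left and mutant line on the right, filled where the adjusted p was under 0.05, with a red line at the median of each list. Most lists spread to both sides of 0, with list medians between -0.38 and 0.44.

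Among targets that MYC is known to activate, 22 genes of ribosome biogenesis had 2 called higher and 5 lower in naïve ESCs of the WT line and 0 higher and 7 lower in the mutant line. That is 31.8% called in each, beside 35.9% and 35.2% of all genes. All 7 calls in the mutant line were thus lower, beside 16.9% of all genes lower and 18.3% higher in that line. Of these 7, the calls of Nop56 and Ubtf were lost in 8 and 3 of 20 alternatives, and the others held in all 20. The median difference was -0.13 in the WT and -0.31 in the mutant line. Nolc1, a nucleolar chaperone, was lower (log2 differences -0.70 and -0.82, limma, adjusted p = 0.00343 and 0.00109). Polr1b, a subunit of RNA polymerase I, and Bop1, a factor of the large ribosomal subunit, were lower in the WT line (log2 differences -0.69 and -0.68, adjusted p = 0.00908 and 0.00953) and in the mutant line (log2 differences -0.87 and -0.85, adjusted p = 0.00210 and 0.00221). Their WT calls were lost without primed replicate 1 of that line (differences -0.59 and -0.58, adjusted p = 0.0540 and 0.0561). The snoRNP protein gene Nop58 was lower in both lines (log2 differences -0.55 with WT and -0.97 with mutant TET2, adjusted p = 0.0174 and 0.000347), a WT call lost in 4 of 20 alternatives, and Npm1, which encodes nucleophosmin, was higher by 0.65 in the WT line (adjusted p = 0.0194; up to 0.0913 with 1 library left out).

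Of 24 targets in metabolism and the cell cycle, 4 were higher and 2 lower in the WT line (25%) and 4 were higher and 5 lower in the mutant line (37.5%), beside 35.9% and 35.2% of all genes. Ccnd2, a D-type cyclin, was 4.27 ± 0.43 in naïve and 6.19 ± 0.10 in primed ESCs with WT TET2 and 4.54 ± 0.07 and 6.37 ± 0.45 with mutant TET2 (SD, n = 3 each), lower (log2 differences -1.92 and -1.82, limma, adjusted p = 1.50e-05 and 2.56e-05). Its naïve means lie near the lowest value of the table (3.81), so Ccnd2 passed the filter on low values only through its primed libraries. The stricter filter left it out. Odc1, the rate-limiting enzyme of polyamine synthesis, was lower (log2 differences -0.94 and -1.31, adjusted p = 0.00161 and 0.000109). Other classical targets were called higher in naïve ESCs, but of those named here only Tert was called in both lines. The transferrin receptor gene Tfrc and the mitochondrial peroxidase gene Prdx3 were higher by 1.13 and 0.74 in the WT line (adjusted p = 0.00383 and 0.00324). Tert, the catalytic subunit of telomerase, was higher by 0.74 in the WT and 0.82 in the mutant line (adjusted p = 0.0278 and 0.0165), each call lost in 3 of 20 alternatives. Hk2, a hexokinase, was higher by 0.76 in the mutant line (adjusted p = 0.0296; up to 0.127 with 1 library left out).

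Genes that MYC represses through MIZ1 were split as well. Of 7 tested, 2 were higher and 2 lower in the WT line (57.1%) and 3 were higher and 2 lower in the mutant line (71.4%), beside 35.9% and 35.2% of all genes. Cdkn1a, which encodes the CDK inhibitor p21, was 10.43 ± 0.37 in naïve and 9.06 ± 0.09 in primed ESCs with WT TET2 and 10.59 ± 0.12 and 8.70 ± 0.25 with mutant TET2 (SD, n = 3 each), higher by 1.36 and 1.90 (limma, adjusted p = 3.82e-05 and 1.47e-06). Gadd45a, a stress-response gene, was lower (log2 differences -1.72 and -1.77, adjusted p = 0.000248 and 0.000212). Cdkn1c, another CDK inhibitor gene, was lower (log2 differences -0.81 and -0.83, adjusted p = 0.0285 and 0.0248; up to 0.140 and 0.137 in the alternatives). Ndrg2 was higher by 0.51 in the WT and 0.61 in the mutant line (adjusted p = 0.0346 and 0.0136; up to 0.129 and 0.0856 in the alternatives), and Ndrg1 by 0.97 in the mutant line (adjusted p = 0.00699). Between the rescue lines 0 genes of any of these 9 lists were called in either medium or in the interaction, by limma over all genes, and between 0 and 5 genes of a list had an unadjusted p under 0.05. Over both media comparisons, 18 of 35 list genes called in the WT line and 20 of 40 in the mutant line held in all 20 alternatives, and Ccnd2 held in both lines in the 19 that tested it.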

How the data were processed

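Libraries were grouped by medium and rescue construct from their labels, and all 12 were used. Per the labels and the study's methods, the authors trimmed reads with Trim Galore (0.3.3), aligned them to mm9 with TopHat2 (2.0.9), counted reads per gene without strand and used DESeq2 to make the deposited log2 values, a variance-stabilising transformation that includes size factors and gives a count of 0 the lowest value of the table (3.81) in every library. Here the transformation was inverted, which gave whole reads (within 0.001) for 100% of the values and so the depth of 8066662 to 21335933 gene reads per library. The deposited repeat table was not used here.

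Genes with a mean at least 1 above the lowest value (14185) were tested with limma 3.58.1 (R 4.3.3), with an intensity trend, on the log2 values of all 12 libraries in 1 fit of 4 groups, with Benjamini-Hochberg adjustment over all genes. The call threshold was an adjusted p of 0.05, and 95% intervals come from the same fit. Reads per kilobase used the union of annotated exons (GENCODE vM1, mm9). Reads are not independent molecules, so the counting intervals cover counting error only.

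In naïve ESCs, same-numbered libraries of the 2 rescue lines deviated together from their group means (correlations 0.300 to 0.586), which is where the pairing of the replicate block comes from; no source states a shared batch. Alternatives were other filters, no trend, centring, quantile normalization, only the libraries compared, limma-voom, a replicate block and each library left out. The members and the lists were chosen with earlier results of these data known. All members are named, and of each list the genes called with the largest differences, at most 4 per medium comparison. Stk31, Taf7l, Nop56 and Ubtf are named beyond this rule. Python 3.11.15 with numpy 2.4.6, pandas 2.3.3 and matplotlib 3.10.9 was used for tables and figures.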

Additional observations from a re-analysis of the deposited data

How the results depend on the processing

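Myc and Max in both lines, and Mycn and Mxd1 in the mutant line, stayed called and lower in naïve ESCs in all 20 alternatives. The number of members called in the WT line was 3 with the replicate block and 2 to 5 when single libraries were left out, and in the mutant line it was 4 throughout. With the block the WT calls of Mycn (adjusted p = 0.0603) and Mxd4 (0.0539) were lost, but replicate numbers did not pair the media (mean correlation 0.116 in the WT and -0.0906 in the mutant line) or the primed lines (0.095). Between rescue lines 0 members were called in any alternative, while all genes called in naïve ESCs numbered 9 with no filter, 36 with the block and 5 to 22 with a library left out. In primed ESCs they numbered 19 with only the libraries compared, 209 with the block and 12 to 82 with a library left out, and the interaction gave 0 to 1. Differences that changed sign were not called. Under limma-voom Mnt was 0.0186 between media in the mutant line, centred Mxi1 was -0.0015 there, and under quantile normalization Mxd4 was 0.0094 (WT minus mutant, naïve), Mycl1 -0.004 (primed) and Mga -0.0781 (interaction). The cause was not tested. Leaving out single libraries turned the sign of further differences that were not called, among them the Myc interaction. Between media these ran, in the WT line, from -0.15 to 0.11 for Mycl1, from -0.0344 to 0.33 for Mga and from -0.32 to 0.0056 for Mnt, and in the mutant line from -0.21 to 0.0726 for Mycl1, from -0.19 to 0.31 for Mga, from -0.33 to 0.17 for Mnt, from -0.19 to 0.0706 for Mxd3 and from -0.0484 to 0.15 for Mxi1. Between rescue lines they ran, in naïve ESCs, from -0.0898 to 0.22 for Mycl1 and from -0.26 to 0.15 for Mxd4, and in primed ESCs from -0.0793 to 0.22 for Mycn, from -0.0316 to 0.11 for Mycl1 and from -0.13 to 0.0655 for Mxi1. For the interaction they ran from -0.026 to 0.56 for Myc, from -0.12 to 0.19 for Mycl1, from -0.17 to 0.34 for Mga, from -0.31 to 0.19 for Mnt, from -0.0093 to 0.36 for Mxd1 and from -0.14 to 0.13 for Mxd3. Depth limits Myc most, with 3 reads in the lowest naïve libraries.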
